A study of Arabidopsis thaliana with 12 samples.

Results

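The genes described here are 38 members of the tau class (GSTU, 28 genes) and the phi class (GSTF, 10 genes) of glutathione transferases of Arabidopsis thaliana. The genes were chosen by class and locus identifier, with earlier results of these data in view, and the values the choice refers to are presence in each tissue, largest count and shoot to root share. These values are therefore given as a description. The members' translated open reading frames (ORFs) were looked up in 1 ribosome profiling set for root and 1 for shoot. Of the 38 genes, 30 had an ORF in at least 1 tissue, among 18273 such genes in all. The phi genes GSTF4, GSTF5 and GSTF12 were not on the list and are given separately with the other classes.

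Ribosome profiling sequences the RNA fragments that ribosomes protect, so a footprint count reflects both the amount of a messenger RNA and how heavily it is translated. The plants were wild type, ecotype Col, grown in shaken liquid medium with sucrose under long days, and roots and shoots of 4-day-old seedlings were collected 3 hours after lights on. The labels list 12 samples in 4 groups, with 3 ribosome footprint and 3 RNA samples for root and the same for shoot. The ORF sets give 1 whole-number count per ORF and tissue, so no value below has a replicate error, no test between the tissues was made, and intervals (exact Poisson for counts, exact binomial for ratios, both 95%) cover counting error only. RNA values were not analysed here, and in whole organs fewer expressing cells and less RNA or translation per cell cannot be told apart.

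Glutathione transferases join the tripeptide glutathione to reactive or foreign molecules, which are then carried into the vacuole by ABC transporters and broken down. The tau and phi classes are the large plant classes of this family. They are known for herbicide detoxification, for induction by auxin, salicylic acid and oxidative stress, and for carrying or conjugating compounds of defence metabolism. Many members lie side by side on the chromosomes in tandem arrays of related copies.

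The largest ORF counts of all genes summed to 113381941 in root and 95481490 in shoot, and a gene's share is its largest count divided by that sum. Markers of each tissue were checked against the labels. The root genes CASP1, EXPA7 and PIN2 had shoot shares of 1.51% to 2.27% of their root shares, and PLT1 and RHD6 were listed in root only. In the other direction RBCS1A and LHCA1 had shares 43.1-fold and 32.2-fold higher in shoot, and SPCH, TMM and FIL were listed in shoot only. Over 14659 genes listed in both tissues with at least 100 counts in the higher one, the log2 ratio of the shoot share to the root share had a median of -0.34. A ratio of 0 therefore lies slightly to the shoot side of the typical gene.

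Presence came first. Both tissues listed 24 of the 38 members, root alone listed 6, shoot alone 0, and 8 were in neither set. Of the 30 listed members, 80.0% were thus in both tissues and 20.0% in root only. Over all genes listed in either tissue, 80.3% were in both, 11.4% in root only and 8.3% in shoot only. The count of 0 in shoot only depends on the member list, since the phi genes GSTF5 and GSTF12, left off it, were in shoot only. The 6 members of root only were GSTU10 (1367 counts, 95% interval 1295 to 1441), GSTU14 (2419, 2324 to 2517), GSTU23 (664, 614 to 716), GSTU28 (3173, 3064 to 3285), GSTF13 (1243, 1175 to 1314) and GSTF14 (328, 293 to 365). Their root levels, in counts per codon of the ORF, ran from 1.29 for GSTF14 to 14.2 for GSTU28, in the lower part of the range of the 30 listed members. Absence from the shoot set does not show that a gene went untranslated in shoot, and these genes have no fold.

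The 8 members in neither set were GSTU2, GSTU3, GSTU4, GSTU11, GSTU12, GSTU15, GSTU21 and GSTF3. GSTU2, GSTU3 and GSTU4 are neighbours in the array that runs from GSTU1 to GSTU7, and GSTU11 and GSTU12 form an array of their own. GSTF3 is a near-identical copy of GSTF2, so reads of the pair could have been assigned to GSTF2 or dropped, and the value of GSTF2 is uncertain for that reason. The same holds for GSTF6 and GSTF7, which are close copies. How reads that match several genes were handled is not given in the sources used here.

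All 30 listed members had coding ORFs only, 32 in root and 26 in shoot, with no upstream or downstream ORF. The share of all genes with coding ORFs only was not computed, so this is not a trait particular to the family. The listed members of the tau and phi classes differed in a feature that the choice of members did not use. The largest ORF of each of the 21 listed tau genes was built of 2 exon blocks and that of each of the 9 listed phi genes of 3. This does not hold for the whole phi class. Of the phi genes left off the list, GSTF4 and GSTF5 had 4 blocks and GSTF12 had 3. Over all nuclear genes in root, 11.8% had 2 blocks and 10.2% had 3. The root ORFs were 174 to 263 codons long. GSTU23 was the shortest, and GSTF8, which is known to have a longer form directed to the plastid, was the longest.

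As a family the members took a larger share of the root footprints than of the shoot footprints, and this rested on the phi pair GSTF9 and GSTF10. All members together held 0.625% of the root sum and 0.385% of the shoot sum. The phi members held 0.448% in root and 0.209% in shoot, whereas the tau members held 0.176% in both. Tau genes thus made up 28.2% of the members' own counts in root and 45.7% in shoot. Without GSTF9 and GSTF10, left out after their values were seen, the direction turned, with 0.288% in root and 0.299% in shoot for all members and 0.112% and 0.123% for the phi members. The tau genes of the shoot set were all in the root set too, in other proportions.

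**Figure D1:**
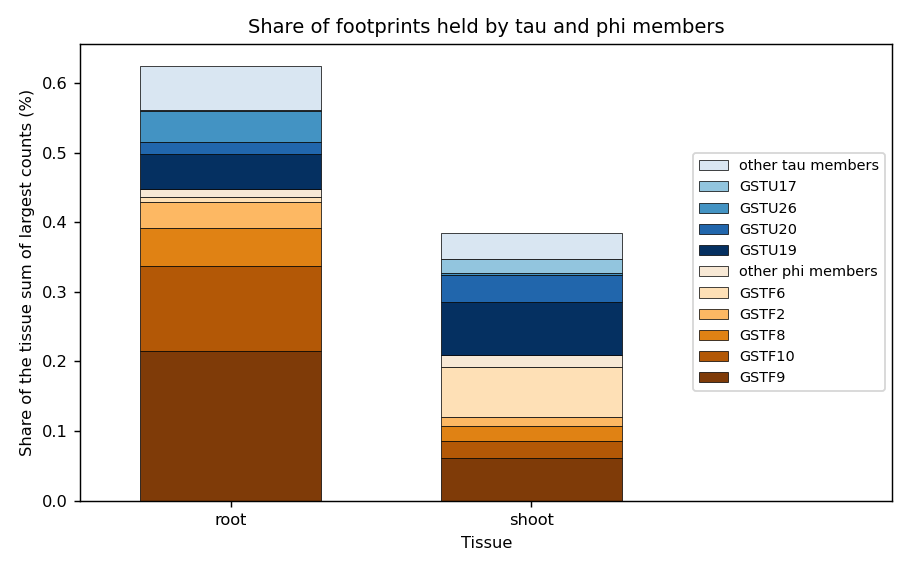
Stacked bars of the share of each tissue's sum of largest counts, in percent, held by the phi members (orange shades, below) and the tau members (blue shades, above) in root and shoot, with the members that take the most counts drawn singly. The phi part is 0.448% in root and 0.209% in shoot and the tau part 0.176% in both. GSTF9 and GSTF10 fill most of the root phi part, and GSTF6 and GSTU19 are the members with the widest bands in shoot.

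In root, GSTF9 and GSTF10 dominated. GSTF9 (AT2G30860, chromosome 2 from 13139133 to 13140056, plus strand), a phi enzyme found in most organs, had 243902 counts in root (242935 to 244872) and 58098 in shoot (57627 to 58572). Its level of 1134 counts per codon placed it at rank 10 of 16757 root genes, against rank 179 in shoot. GSTF10 (AT2G30870, chromosome 2 from 13141491 to 13142391), its tandem neighbour, had 137899 counts in root (137172 to 138629) and 24147 in shoot (23843 to 24454). The pair held 53.9% of the members' counts in root. Both had higher shares in root, GSTF9 by 3.54-fold (log2 ratio -1.82, -1.83 to -1.81) and GSTF10 by 4.81-fold (-2.27, -2.29 to -2.25).

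A second phi pair stood on the opposite side. GSTF6 (AT1G02930, chromosome 1 from 661366 to 662190, minus strand), which acts in synthesis of the phytoalexin camalexin, had 8064 counts in root (7889 to 8242) and 67940 in shoot (67430 to 68453). Its share was 10.004-fold higher in shoot (log2 ratio 3.32, 3.29 to 3.36). GSTF7 (AT1G02920), next to it, had 10169 counts in root and 16335 in shoot, a 1.91-fold higher share in shoot (0.93, 0.90 to 0.97). Within the pair GSTF7 had the higher level per codon in root (48.7 against 38.8) and GSTF6 in shoot (327 against 78.2).

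Of the phi genes outside arrays, 3 were listed in both tissues, all with higher shares in root. GSTF8 (AT2G47730, chromosome 2 from 19558214 to 19559265), whose promoter is a textbook stress-responsive one, had 62090 counts in root (61603 to 62580) and 20550 in shoot (20270 to 20833), 2.54-fold higher in root (log2 ratio -1.35). GSTF2 (AT4G02520, chromosome 4 from 1110676 to 1111530), which binds auxin-related and indole compounds, had 43116 (42710 to 43525) and 12019 counts (11805 to 12236), 3.02-fold higher in root (-1.59). GSTF11, linked to synthesis of aliphatic glucosinolates, had 1505 and 749 counts, 1.69-fold higher in root (-0.76). Over the 7 phi members in both tissues the median log2 ratio was -1.35, or -0.76 without GSTF9 and GSTF10. Of the 7, 5 lay below 0 and 2 above, next to 63.1% of all genes below 0.

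The tau class was led by GSTU19 in both tissues. GSTU19 (AT1G78380, chromosome 1 from 29486662 to 29487818, minus strand), a detoxifying enzyme induced by herbicide safeners, had 56610 counts in root (56145 to 57078) and 72194 in shoot (71668 to 72723). Its share was 1.51-fold higher in shoot (log2 ratio 0.60, 0.58 to 0.61). GSTU20 (AT1G78370, chromosome 1 from 29484431 to 29485203), a partner of the jasmonate-conjugating enzyme FIN219, had 18603 counts in root (18337 to 18872) and 37340 in shoot (36962 to 37721), 2.38-fold higher in shoot (1.25). In shoot GSTU19 and GSTF6 were the members with the highest levels per codon, 330 and 327, and their counting intervals overlapped.

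GSTU26 was the second tau gene of root but not of shoot. GSTU26 (AT1G17190, chromosome 1 from 5875453 to 5876374, plus strand) had 50934 counts in root (50493 to 51378) and 2934 in shoot (2829 to 3042), 14.6-fold higher in root (log2 ratio -3.87, -3.92 to -3.82). By level per codon it ranked 288 among all root genes and 3347 among all shoot genes.

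**Figure D2:**
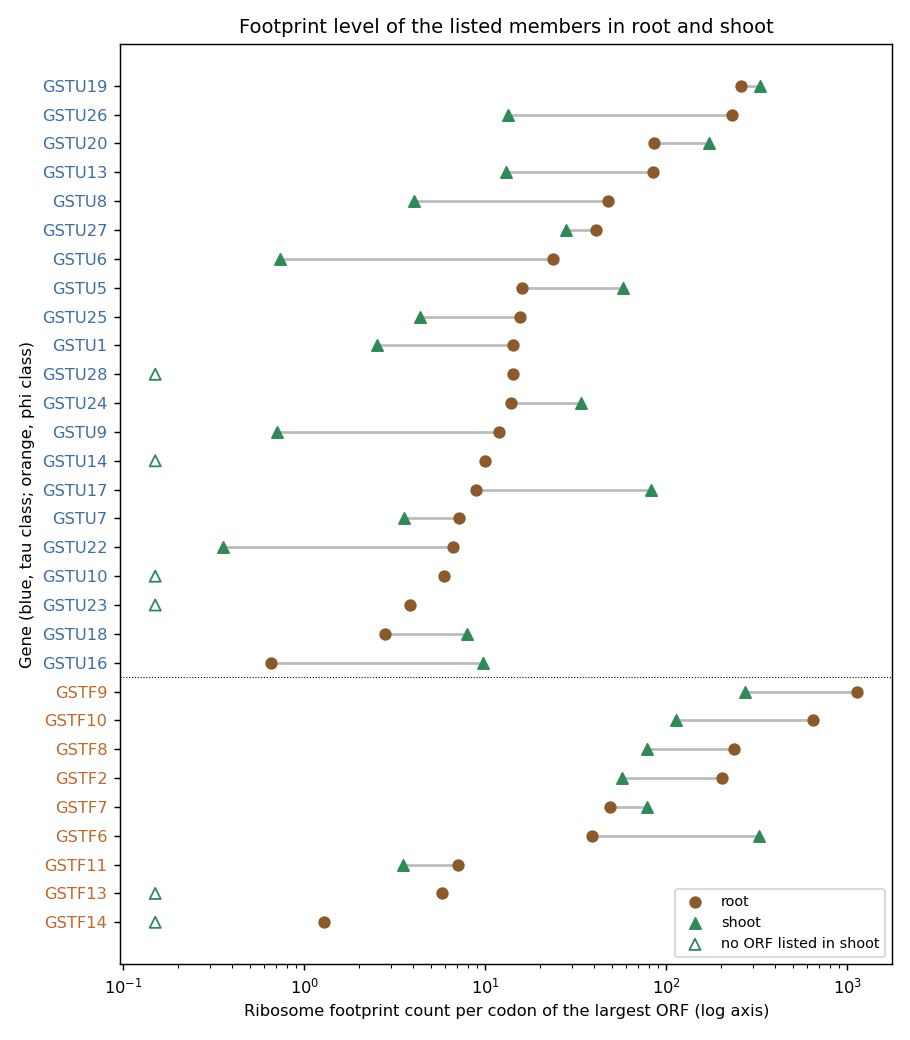
Footprint count per codon of the largest ORF, on a log axis, for the 30 listed members in root (brown circles) and shoot (green triangles), with a line joining the tissues and an open triangle at the left edge where no ORF was listed in shoot; counts are not scaled for the different tissue sums. Root levels run from 0.654 for GSTU16 to 1134 for GSTF9 and shoot levels from 0.353 for GSTU22 to 330 for GSTU19, and the order of the genes differs between the tissues.

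Of the 24 members with a ratio, 8 had shares at least 4-fold higher in root and 4 at least 4-fold higher in shoot. Over all 14659 genes, 9.89% were at least 4-fold higher in root and 9.53% in shoot. In the tau class 7 of 17 members were on the root side and 3 on the shoot side, and in the phi class 1 of 7 on each. With GSTF4, GSTF5 and GSTF12 added, the phi class would have 2 genes past 4-fold on the root side and 1 on the shoot side, and 2 genes each in root only and in shoot only. When ratios are instead taken relative to the median gene, 6 members stand on the root side and 5 on the shoot side, because GSTU1 and GSTF10 leave the first group and GSTU18 joins the second. That scaling changes the whole table as well, from 1450 root and 1397 shoot genes to 1110 and 1643, or from 49.1% to 59.7% on the shoot side.

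**Figure D3:**
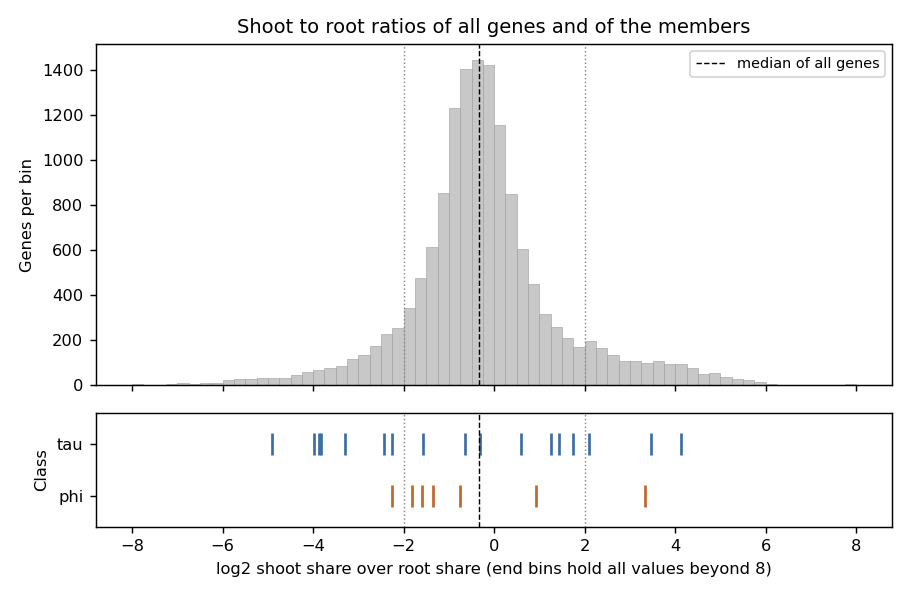
Above, the number of genes per bin of log2 shoot share over root share for 14659 genes; below, the same ratio for each of the 17 tau (blue) and 7 phi (orange) members in both tissues. Dotted lines mark 4-fold and the dashed line the median of all genes, -0.34. The tau members run from -4.91 to 4.13 and the phi members from -2.27 to 3.32.

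The lowest ratio was that of GSTU6 (AT2G29440, chromosome 2 from 12620162 to 12621098), which had 5265 counts in root (5124 to 5409) and 147 in shoot (124 to 173), a share 30.1-fold higher in root (log2 ratio -4.91, -5.16 to -4.68). GSTU22 (AT1G78340, chromosome 1 from 29473049 to 29473796) followed with 1451 (1377 to 1528) and 77 counts (60.8 to 96.2), 15.8-fold higher in root (-3.98, -4.34 to -3.66). GSTU9 (AT5G62480, chromosome 5 from 25088778 to 25089565) had 2862 (2758 to 2969) and 170 (145 to 198), 14.1-fold higher in root (-3.82). The shoot shares of GSTU6, GSTU9, GSTU22 and GSTU26 were 3.33% to 7.07% of their root shares, above the 1.51% to 2.27% of the root markers. Whether tissue of the other organ contributed to these low shoot counts was not tested.

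GSTU8 (AT3G09270, chromosome 3 from 2848410 to 2849225) lay in the same direction, with 10639 counts in root (10438 to 10843) and 908 in shoot (850 to 969), 9.86-fold higher in root (log2 ratio -3.30). GSTU13 (AT1G27130), which takes part in the breakdown of indole glucosinolates in defence, had 19105 (18835 to 19378) and 2963 counts (2857 to 3072), 5.43-fold higher in root (-2.44). GSTU1 (AT2G29490) had 3193 and 564 counts, 4.76-fold higher in root (-2.25). With GSTF10, these complete the 8 members past 4-fold on the root side.

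On the shoot side the highest ratio was that of GSTU16 (AT1G59700, chromosome 1 from 21936460 to 21937762), with 153 counts in root (130 to 179) and 2261 in shoot (2169 to 2356), 17.5-fold higher in shoot (log2 ratio 4.13, 3.90 to 4.38). GSTU17 (AT1G10370, also called ERD9, chromosome 1 from 3397277 to 3398272), which acts in light responses of seedlings under phytochrome A, had 2018 (1931 to 2108) and 18743 counts (18476 to 19013), 11.03-fold higher in shoot (3.46). GSTU5 (AT2G29450, chromosome 2 from 12624777 to 12625565), known as an auxin-induced gene, had 3570 (3454 to 3689) and 12909 (12687 to 13134), 4.29-fold higher in shoot (2.10, 2.05 to 2.16). GSTF6, described above, is the only other member past 4-fold on this side. GSTU18 lay just inside that limit, with 633 (585 to 684) and 1787 counts (1705 to 1872) and a 3.35-fold higher share in shoot (1.74).

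The remaining tau members lay within 4-fold. GSTU24 and GSTU25, both known to act on the explosive trinitrotoluene, went in opposite directions, GSTU24 with 3018 counts in root and 6844 in shoot (log2 ratio 1.43) and GSTU25 with 3417 and 961 (-1.58). GSTU7 had 1515 and 811 counts (-0.65). GSTU27 had 9326 and 6315 counts (-0.31, -0.36 to -0.27), a ratio so close to that of the typical gene that it turns positive under scaling on the median. No counting interval of the 24 ratios spanned 0, but the same share over all genes was not computed. The interval of GSTU27 held the median of all genes, -0.34.

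Members of 1 tandem array often had unlike ratios. In the array of GSTU1 to GSTU7 on chromosome 2, whose 4 listed genes span 14.2 kb from 12618114 to 12632359, the order along the chromosome was GSTU7 (log2 ratio -0.65), GSTU6 (-4.91), GSTU5 (2.10) and GSTU1 (-2.25). GSTU6 and GSTU5, with no other gene between them in the RefSeq gene order and 3678 bases between their ORFs, differed by 7.01 on the log2 scale, or 129-fold in their shoot to root ratios. In the array of GSTU19 to GSTU23 on chromosome 1, spanning 20.2 kb, GSTU19 (0.60) and GSTU20 (1.25) lay on the shoot side, GSTU22 (-3.98) on the root side, and GSTU23 was listed in root only. In the array of GSTU24 to GSTU26, spanning 6.48 kb, the ratio stepped down from 1.43 over -1.58 to -3.87. These 3 arrays thus each held members on both sides of 0.

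Where an array with 2 genes on the member list had a ratio for both, the 2 ratios had the same sign. Fewer values agree in sign more readily, so no contrast with the larger arrays is drawn. GSTU17 (3.46) and GSTU18 (1.74), with 471 bases between their ORFs, were both higher in shoot, as were GSTF6 (3.32) and GSTF7 (0.93). The phi genes GSTF5 and GSTF4, left off the list, lie beside GSTF6 on the same strand of chromosome 1. GSTF5, from 663082 to 664127, was listed in shoot only, and GSTF4, from 665311 to 666419, had a ratio of -2.40. With GSTF4 included, this run of phi genes was not uniform in direction. GSTF9 (-1.82) and GSTF10 (-2.27) were both higher in root and differed by 0.44. GSTU13 (-2.44) was higher in root, and its partner GSTU14 was listed in root only. GSTU16 was listed without its partner GSTU15.

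Over the 9 pairs of neighbouring members with a ratio and at most 10 kb between ORFs, the median absolute difference in log2 ratio was 2.39, and 6 of 9 pairs (66.7%) were at least 4-fold apart. Over 8865 pairs of neighbouring genes on the same strand within that distance, the median difference was 1.26 and 33.0% were at least 4-fold apart. The 9 pairs share genes within an array and come from 6 arrays, so the figures are a description. Not all are adjacent genes. GSTU7 and GSTU6 had 3 other genes between them in the RefSeq gene order, and GSTU5 and GSTU1 had 5, of which 3 were members of the array in neither set. Both of these pairs were among those at least 4-fold apart, with differences of 4.26 and 4.35. All 6 members in both tissues that lie outside arrays (GSTU8, GSTU9, GSTU27, GSTF2, GSTF8 and GSTF11) had ratios below 0, and 5 of them lay below the median gene, with GSTU27 just above it. The other 4 listed members outside arrays (GSTU10, GSTU28, GSTF13 and GSTF14) were listed in root only. This holds for the member list only, since the phi gene GSTF12 on chromosome 5, left off it, was in shoot only with 11211 counts. The 18 members in arrays with a ratio lay 9 above 0 and 9 below, and the same numbers above and below the median gene. Over all genes 63.1% lay below 0.

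**Figure D4:**
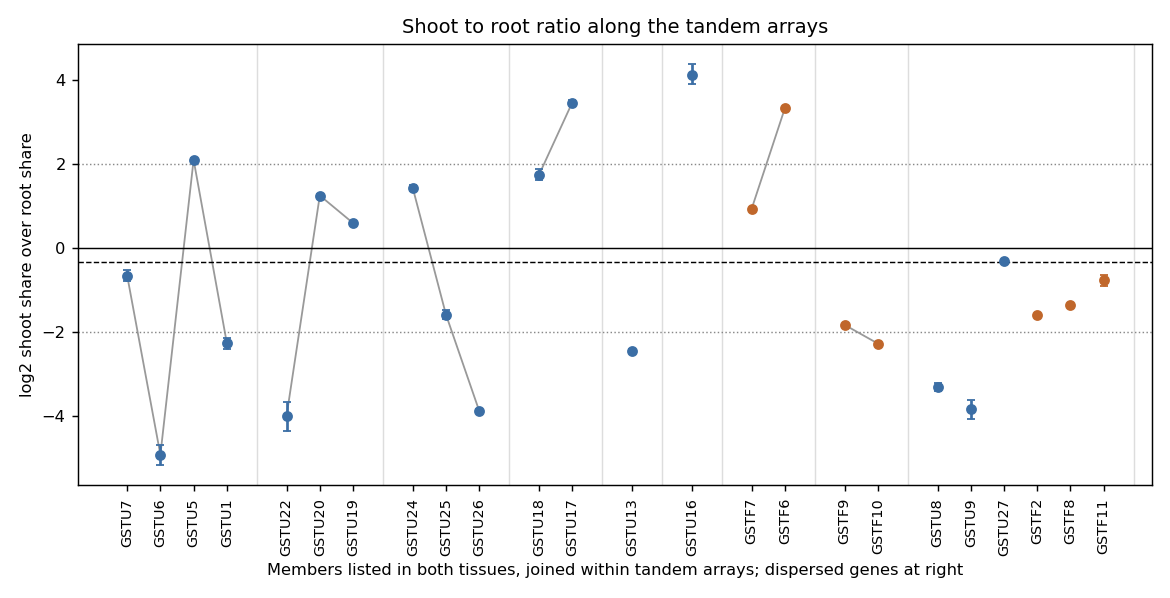
The log2 ratio of shoot share over root share (vertical axis) of the 24 members in both tissues, placed in chromosome order within each tandem array and joined by grey lines (members without a ratio are skipped), with the genes outside arrays at the right; bars are 95% intervals for counting error, dotted lines mark 4-fold and the dashed line the median of all genes. The array of GSTU1 to GSTU7 swings from -4.91 at GSTU6 to 2.10 at GSTU5, whereas GSTF9 and GSTF10 differ by 0.44.

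The ORF with the largest count had the same coordinates in both tissues for 21 of the 24 members, and for 77.3% of all genes in both sets. In GSTU6, GSTU7 and GSTU24 the stop was the same and the start differed. The root ORF of GSTU6 had 223 codons and the shoot ORF 201. For GSTU24 they had 218 and 202, and for GSTU7 the root ORF was the shorter, with 213 against 227. GSTU9 and GSTF9 each had ORFs of 2 transcript forms in both tissues, of 240 and 214 codons for GSTU9 and of 215 and 166 for GSTF9. The count of the longer form was the larger in each case. The forms of each gene overlap in coordinates and differ in length, so these counts do not show which form was translated more.

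Other classes and the rest of the pathway gave the setting. The list of other classes held 15 genes, including the 3 phi genes GSTF4, GSTF5 and GSTF12 left off the member list. Of the 15, 9 were in both tissues, 2 in root only, 2 in shoot only and 2, GSTZ2 and GSTT2, in neither. Its median log2 ratio, with GSTF4 included, was -0.12, against -1.05 over the 24 tau and phi members and -0.34 over all genes. The 2 genes in shoot only were both phi genes, GSTF12 (TT19), which carries anthocyanins, and GSTF5, with 11211 and 1691 counts. GSTF4 had 2285 root and 365 shoot counts (-2.40). With these 3 genes the phi share would be 0.450% in root and 0.223% in shoot.

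The dehydroascorbate reductases, which recycle ascorbate with glutathione, split by isoform. DHAR3, the plastid isoform, had 2025 root and 12254 shoot counts (log2 ratio 2.84), whereas DHAR1 had 32652 and 25316 (-0.12) and DHAR2 had 9441 and 5417 (-0.55). GSTL2, of the lambda class, had 569 root and 2159 shoot counts and was 4.50-fold higher in shoot. GSTL3 of the same class had 4510 and 13080 counts and was 3.44-fold higher in shoot. GSTL1, also of that class (1175 counts), and TCHQD (318 counts) were listed in root only.

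The glutathione synthesis, reduction and turnover list had 0 of 9 genes past 4-fold in either direction, with a median of -0.54, where 19.4% of all genes were past 4-fold. For so short a list the count is near that share. Closest to the limit was GR2, the glutathione reductase of plastids and mitochondria, with 5729 root and 18000 shoot counts (log2 ratio 1.90). On the root side GGT1 and GGT4, which cleave glutathione or its conjugates outside the cell and in the vacuole, had ratios of -1.66 and -1.47. GGCT2;1, which degrades glutathione in the cytosol, was listed in shoot only with 116 counts. GGT2 was in neither set.

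All 6 genes of conjugate and glutathione transport were in both tissues and 0 were past 4-fold, counts near the 80.3% and 19.4% of all genes for so short a list, with a median log2 ratio of 0.15. The vacuolar conjugate pumps ABCC1 and ABCC2 had ratios of -0.17 and 0.09, and ABCC3 was 2.30-fold higher in shoot. The plastid thiol transporter CLT2 had only 128 root and 297 shoot counts (log2 ratio 1.46, 1.16 to 1.77), from ORFs of 426 and 383 codons. The related CLT3 and CLT1 had ratios of 0.21 and -0.11, and the counting interval of CLT1 (-0.32 to 0.10) spanned 0.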

How the data were processed

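Root and shoot seedling tissue was profiled with ribosome footprints and RNA, with 3 samples each. Per the submitters' processing notes, the build was TAIR10 and Bowtie2 and STAR 2.5.1b were used, with no role stated; the ORF caller is not given in the sources used here, nor is the pooling of samples. The deposited tables have no header, and their count per ORF was read as an unscaled whole number (minimum 6).

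Blocks with the same name were joined into 1 ORF. Block sums differed from coding lengths by 1 base, so outer ends are uncertain by 1 base. Each gene took its largest ORF count, divided by the sum of these over genes. Log2 ratios used a pseudocount of 0.5 and genes in both tissues with at least 100 counts in the higher one. Sequenced fragments are not independent molecules. All 38 members and all 42 other listed genes matched locus tags of a RefSeq table (TAIR10.1), used for names and gene order only.

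Members and lists were chosen with earlier results of these data known. All members are named. Full values go to the 6 largest counts per tissue, the 5 highest and 5 lowest ratios and genes of 1 tissue only. From each pathway list the 3 ratios farthest from 0 and genes of 1 tissue only are named, some with a ratio or fold only. DHAR1, DHAR2, GSTL3, CLT1, ABCC1 and ABCC2 were chosen after their values were seen. The ratio step was tested on simulated counts. Python 3.11.15 was used with scipy 1.17.1, numpy 2.4.6, matplotlib 3.10.9 and pandas 2.3.3.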

Additional observations from a re-analysis of the deposited data

How the results depend on the processing

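The alternatives were coding ORFs only, the longest identical coding ORF, scaling on the median gene, nuclear chromosomes only, a pseudocount of 5, counts per codon and no count filter. No 4-fold call of a member changed sign. The median log2 ratio of the tau members went from -0.65 to -0.95 with the identical ORF, over 14 genes in place of 17, and to -0.32 with median scaling. That of the phi members went from -1.35 to -1.01 with median scaling and to -1.31 with nuclear chromosomes only. Members past 4-fold numbered 6 to 8 on the root side and 4 to 5 on the shoot side. Without GSTF9 and GSTF10, an alternative chosen after seeing the data, the family's share went from 0.625% to 0.288% in root and from 0.385% to 0.299% in shoot. Requiring ORF counts of at least 100 gave 7 members in root only in place of 6, since GSTU22 drops from the shoot set. ORFs of at least 100 codons gave the same presence counts as all ORFs. No paired analysis was possible because the ORF tables hold 1 value per tissue and none per replicate, and leaving out a replicate was not run for the same reason. Depth limits the ratios of thinly counted members most, as for GSTU22, whose 77 shoot counts leave a counting interval of -4.34 to -3.66.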

Other observations

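The order of the members by level per codon differed between the tissues. Over the 24 members in both, Spearman's rho of counts per codon between root and shoot was 0.64, against 0.69 over all 14659 genes; the points share the footprint protocol and, for each tissue, 1 ORF set. Of the 30 members in root, 26 had a level per codon above the median of all root genes, and of the 24 in shoot, 18 lay above the shoot median. Counting intervals of neighbours in this order overlapped for 8 of 29 pairs in root and 8 of 23 in shoot, for example GSTU20 and GSTU13 in root and GSTF7 and GSTF8 in shoot, so these neighbours are not ordered beyond counting error.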
